A study of Homo sapiens with 10 samples.

Results

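The 49 genes described here encode enzymes that write, remove or read marks on histones and DNA, out of 20033 protein-coding genes of GENCODE release 44. They were chosen by name and by function, not by their signal, and every one of the 49 was found in the annotation. The set holds 9 acetyltransferase genes, 11 deacetylase genes, 4 sirtuin genes, 2 bromodomain reader genes, 4 PRC2 genes, 7 histone methyltransferase genes, 5 demethylase genes, 3 TET genes and 4 genes of DNA methylation.

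ChIP-seq of a pair of acetyl marks on histone H3, at lysines 27 and 18, was compared between 2 prostate cancer lines. C4-2B is an established line of castration-resistant prostate adenocarcinoma. C4-2BER is its derivative with resistance to enzalutamide, an androgen receptor antagonist, and was described by the study as having neuroendocrine-like features and as being kept in the drug. For each mark and line, 2 immunoprecipitated libraries were merged before peaks were called against the line's 1 input library, so that each peak has 1 value per line, no replicate error can be given, and no test was possible. Each group is 1 cell line, so the derivation of the line, the drug and the resistance cannot be told apart.

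H3K27ac and H3K18ac are both written by the paralogous acetyltransferases p300 and CBP, and both are found at active promoters and enhancers, where deacetylases remove them and bromodomain proteins such as BRD2 and BRD3 bind acetylated histone tails. PRC2 deposits the repressive mark H3K27me3 on the same lysine that acetylation occupies, and KDM6A and KDM6B remove it. DNMT enzymes methylate cytosine, UHRF1 guides DNMT1 to newly copied DNA, and TET enzymes oxidise 5-methylcytosine to 5-hydroxymethylcytosine.

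A promoter was taken as the Ensembl canonical start site with 1000 bp to either side, and its value was the highest fold enrichment over background of any peak that overlapped it. Fold enrichment in these lists is an average over the whole peak and is scaled to each list's own background. A promoter was called increased in C4-2BER where the peak was absent from C4-2B or its value was at least 2 times that of C4-2B, and decreased in the mirrored case. The H3K27ac lists held 72971 peaks in C4-2BER against 68034 in C4-2B, and the H3K18ac lists held 197948 and 198451. The read depth behind them is unknown. Among the marker genes used to check the labels, all 8 luminal prostate genes had peaks of both marks at their promoters in both lines. Of 7 neuroendocrine genes, which are not the whole list, SYP had H3K27ac of 5.67 in C4-2BER against 8.16 in C4-2B, ENO2 had 7.30 and 4.00, and CHGA, CHGB, NCAM1, INSM1 and SCG2 had no H3K27ac peak in either line. For H3K18ac CHGB had 2.67 in C4-2B and no peak in C4-2BER, and SCG2 had no peak in either line. CHGA, SYP, NCAM1, ENO2 and INSM1 had H3K18ac peaks in both lines and none of them was called changed. ENO2 was nominally higher in C4-2BER, at 4.33 against 4.06, while CHGA, SYP, NCAM1 and INSM1 were nominally lower.

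The promoters on which the comparison turns are shown first. The sequences run from 270 bases upstream to 30 bases downstream of the canonical start site, written 5′ to 3′ on the gene's strand (GRCh38), with each CG in capitals. EZH1 and HDAC4 were the members with a called promoter change, TET2 converts 5-methylcytosine, and EP300 encodes p300, which writes both of the marks measured.
EZH1 promoter, chr17:42745011-42745310, minus strand: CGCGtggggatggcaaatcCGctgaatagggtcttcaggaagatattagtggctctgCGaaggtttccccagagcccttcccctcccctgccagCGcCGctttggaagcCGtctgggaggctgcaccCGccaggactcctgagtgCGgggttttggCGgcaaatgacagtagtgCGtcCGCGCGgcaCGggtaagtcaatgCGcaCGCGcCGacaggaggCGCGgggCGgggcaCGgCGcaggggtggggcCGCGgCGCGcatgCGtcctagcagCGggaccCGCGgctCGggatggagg
HDAC4 promoter, chr2:239400991-239401290, minus strand: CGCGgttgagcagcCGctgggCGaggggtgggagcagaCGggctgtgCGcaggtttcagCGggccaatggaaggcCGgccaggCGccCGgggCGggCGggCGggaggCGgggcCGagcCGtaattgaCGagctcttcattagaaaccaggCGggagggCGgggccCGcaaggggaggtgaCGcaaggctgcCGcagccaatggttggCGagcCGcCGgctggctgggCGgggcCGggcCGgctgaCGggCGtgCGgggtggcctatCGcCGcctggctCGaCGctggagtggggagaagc
TET2 promoter, chr4:105146606-105146905, plus strand: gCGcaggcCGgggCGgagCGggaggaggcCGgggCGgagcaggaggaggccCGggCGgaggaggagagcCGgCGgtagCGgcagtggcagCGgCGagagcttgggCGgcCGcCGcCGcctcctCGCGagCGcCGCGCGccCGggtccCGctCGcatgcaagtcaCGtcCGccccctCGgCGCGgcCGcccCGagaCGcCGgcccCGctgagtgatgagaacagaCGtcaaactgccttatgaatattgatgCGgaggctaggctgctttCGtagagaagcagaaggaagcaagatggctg
EP300 promoter, chr22:41092322-41092621, plus strand: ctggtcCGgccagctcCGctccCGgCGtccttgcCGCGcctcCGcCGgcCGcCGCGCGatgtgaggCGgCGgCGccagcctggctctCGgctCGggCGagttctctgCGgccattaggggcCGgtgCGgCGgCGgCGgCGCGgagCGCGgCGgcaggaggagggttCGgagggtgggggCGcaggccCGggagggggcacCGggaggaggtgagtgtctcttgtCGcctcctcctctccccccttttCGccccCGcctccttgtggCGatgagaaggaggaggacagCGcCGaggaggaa
In these 300 bases EP300 and TET2 held more CG than 88.4% of all protein-coding promoters, HDAC4 more than 81.3% and EZH1 more than 76.9%. The median over the 49 members was 31 CG per 300 bases, against 22 over all 20033 genes, and the members ranged from 5 to 61. The letters TATAAA were read on either strand in 1 of 49 member promoters (2.04%), against 10.2% of all promoters. The letters CCAAT were found in 17 members (34.7%) and in 36.9% of all promoters, and CCGGAAG in 6 members (12.2%) and in 14.2% of all promoters, on either strand. These matches describe the letters and were not examined for binding.

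Almost every member promoter carried both marks in both lines. H3K27ac and H3K18ac peaks were present in both lines at 48 of the 49 promoters (98.0%), against 66.9% of all protein-coding genes for H3K27ac and 79.1% for H3K18ac. HDAC9, a class IIa deacetylase gene, had no peak of either mark in its canonical window in either line. The members' levels were also above the middle of the genome. Their median H3K27ac fold enrichment was 15.0 in C4-2BER against 21.4 in C4-2B, against 12.4 and 18.2 over all genes with a peak, and their median H3K18ac fold enrichment was 6.90 and 9.14, against 5.59 and 7.00.

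No member promoter was increased in C4-2BER for either mark, where 3.31% of all genes were increased for H3K27ac and 2.1% for H3K18ac. For H3K27ac 1 member, EZH1, was decreased, where 8.01% of all genes were. For H3K18ac 1 member, HDAC4, was decreased, where 6.12% of all genes were. The share of all genes includes those with a peak in 1 line only, a state that no member was in. Among genes with a peak in both lines, 123 of 13393 were increased for H3K27ac and 22 of 15844 for H3K18ac. Of the same genes 8.58% and 1.81% were decreased. Fold enrichment was nominally lower in C4-2BER at 46 of the 48 H3K27ac promoters and at 42 of the 48 H3K18ac promoters, with a median log2 ratio (C4-2BER over C4-2B) of -0.60 for H3K27ac and -0.35 for H3K18ac. Over all genes with a peak in both lines the medians were also below 0, at -0.51 and -0.34, and 11.8% of genes were higher in C4-2BER for H3K27ac and 14.2% for H3K18ac, against 2 and 6 of the 48 members. After C4-2BER was rescaled by a robust line over the regions that both lines shared, the members' medians became -0.12 and -0.11, those of all genes -0.11 and -0.14, and 20 of 48 members were then higher in C4-2BER for H3K27ac and 19 of 48 for H3K18ac (41.7% and 39.6%, against 36.4% and 32.0% of all genes). On either scale the members' medians lay close to those of all genes.

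**Figure D1:**
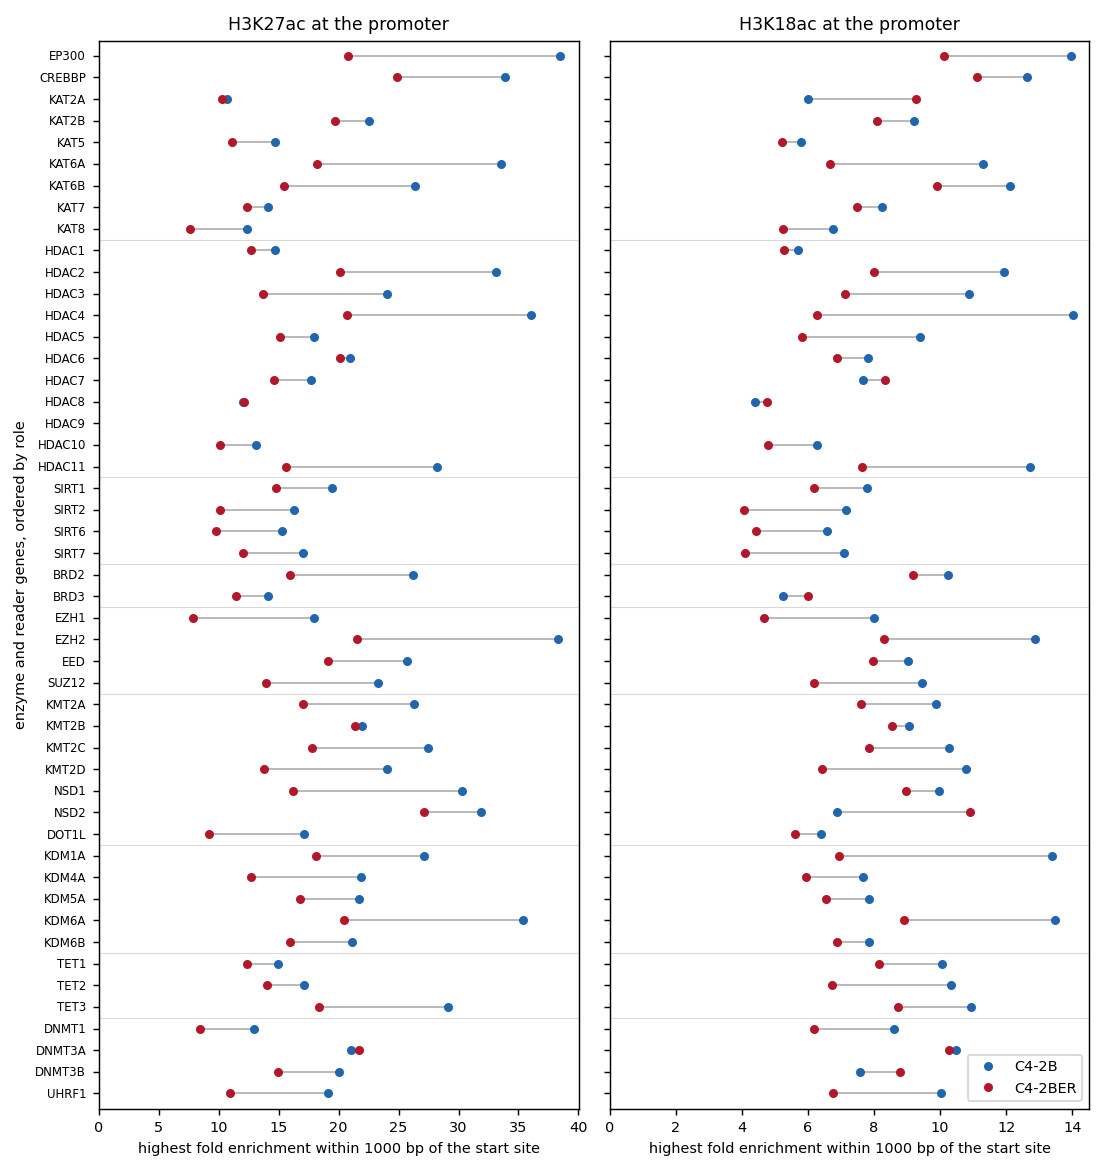
Highest fold enrichment within 1000 bp of the canonical start site of each of the 49 genes, for H3K27ac (left) and H3K18ac (right), in C4-2B (blue) and C4-2BER (red), ordered by role with thin lines between roles. Each point is 1 peak of a merged list, so there are no error bars. The red point lies to the left of the blue one in 46 of 48 genes for H3K27ac and in 42 of 48 for H3K18ac, and HDAC9 has no point.

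Among the acetyltransferases, EP300 (chr22:41092592-41180077) had one of the strongest promoters of the set. Its H3K27ac fold enrichment was 20.7 in C4-2BER against 38.5 in C4-2B, and its H3K18ac fold enrichment was 10.1 and 13.9. The lower value in C4-2BER did not reach a ratio of 2 for either mark. CREBBP (chr16:3725054-3880713), which encodes CBP, had 24.9 and 33.9 for H3K27ac and 11.1 and 12.6 for H3K18ac, so the 2 writers of these marks held their own promoters among the most acetylated in both lines. KAT2A, the GCN5 gene, went 2 ways in fold enrichment: H3K27ac was 10.3 in C4-2BER against 10.7 in C4-2B, while H3K18ac was 9.27 and 5.99, a log2 ratio of 0.63. Its H3K18ac peak was 2472 bp wide in C4-2BER against 3992 bp in C4-2B. With fold enrichment times width, the log2 ratios of KAT2A were -0.08 for H3K27ac and -0.06 for H3K18ac. KAT8, which acetylates H4 lysine 16, had one of the lowest H3K27ac values, 7.64 in C4-2BER against 12.3 in C4-2B. Over all 9 genes H3K27ac was nominally lower in C4-2BER in 9 and H3K18ac in 8.

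Among the deacetylases, HDAC4 (chr2:239048168-239401654), a class IIa enzyme, showed the decreased H3K18ac promoter. Its H3K18ac fold enrichment was 6.28 in C4-2BER against 14.0 in C4-2B (log2 ratio -1.16, and -0.89 after rescaling), while H3K27ac was 20.7 and 36.01 (log2 ratio -0.80). The H3K18ac peak was 9785 bp wide in C4-2BER against 2414 bp in C4-2B, so the 2 averages cover unequal stretches. HDAC1, a class I enzyme of the NuRD and Sin3 complexes, had low H3K18ac in both lines, 5.29 and 5.69. HDAC8 on chromosome X was lowest among the members with a peak by the mean H3K18ac of both lines, with 4.75 and 4.41, and had H3K27ac of 12.1 in C4-2BER against 12.04 in C4-2B. The 4 sirtuin genes, whose enzymes use NAD as cosubstrate, were nominally lower in C4-2BER for both marks, with H3K18ac log2 ratios from -0.81 at SIRT2 to -0.34 at SIRT1. Of the bromodomain genes, BRD2 had H3K27ac of 16.0 and 26.2, and BRD3 had 11.4 and 14.1.

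In PRC2, EZH1 (chromosome 17, start site 42745040) was the decreased H3K27ac promoter. EZH1 encodes the catalytic paralog that is also found in cells that do not divide. Its H3K27ac fold enrichment was 7.89 in C4-2BER against 17.9 in C4-2B (log2 ratio -1.18, and -0.84 after rescaling), and its H3K18ac was 4.68 and 7.99 (log2 ratio -0.77). The peaks again differed in width, 14881 bp in C4-2BER against 2889 bp in C4-2B for H3K27ac and 15831 bp against 2682 bp for H3K18ac. EZH2, the main catalytic subunit in dividing cells, had the highest H3K27ac of the set by the mean of both lines, 21.6 in C4-2BER against 38.3 in C4-2B, with H3K18ac of 8.30 and 12.9. The EZH2 peaks were of similar width in both lines, 3301 bp and 3131 bp for H3K27ac. The scaffold genes EED and SUZ12 had H3K27ac log2 ratios of -0.43 and -0.74.

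Among the methyltransferases, NSD2, which dimethylates H3 lysine 36, had marks that diverged in fold enrichment. In other roles KAT2A, HDAC7, BRD3 and DNMT3B also had nominally lower H3K27ac with nominally higher H3K18ac in C4-2BER. H3K27ac was 27.1 in C4-2BER against 31.8 in C4-2B, and H3K18ac was 10.9 and 6.88, a log2 ratio of 0.67 and the highest H3K18ac ratio among the members. Its H3K18ac peak was 4202 bp wide in C4-2BER against 11240 bp in C4-2B. With fold enrichment times width, the log2 ratios of NSD2 were 0.31 for H3K27ac and -0.75 for H3K18ac, so both directions turned over. KMT2B, an H3K4 methyltransferase gene, was level for both marks, with H3K27ac of 21.4 and 22.0 and H3K18ac of 8.55 and 9.07. The demethylase gene KDM6A (chromosome X) had H3K27ac of 20.5 in C4-2BER against 35.4 in C4-2B and H3K18ac of 8.91 and 13.5. KDM1A, which removes methyl groups from H3 lysine 4, had the nearest H3K18ac value to the threshold, 6.93 and 13.4 with a log2 ratio of -0.95. Its H3K18ac peaks were 2951 bp wide in C4-2BER against 1149 bp in C4-2B. Fold enrichment times width gave a log2 ratio of 0.41 there.

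Promoters of the enzymes that oxidise or place cytosine methylation kept both marks. TET2 (chr4:105145875-105279816) had H3K27ac of 14.0 in C4-2BER against 17.1 in C4-2B (log2 ratio -0.29, and 0.12 after rescaling) and H3K18ac of 6.72 and 10.3 (log2 ratio -0.62, and -0.37 after rescaling). TET1 had H3K27ac of 12.4 and 14.9 and H3K18ac of 8.16 and 10.1. TET3 had H3K27ac of 18.4 and 29.1 and H3K18ac of 8.72 and 10.9. None of the 3 TET promoters was called changed in either mark. DNMT3A, a de novo methyltransferase gene, was the member with the highest H3K27ac ratio, at 21.7 in C4-2BER against 21.0 in C4-2B (log2 ratio 0.05). DNMT3B had H3K27ac of 14.9 and 20.05 and H3K18ac of 8.77 and 7.57. Its H3K18ac peak was 3233 bp wide in C4-2BER against 8959 bp in C4-2B. With fold enrichment times width, the log2 ratios of DNMT3B were 0.56 for H3K27ac and -1.26 for H3K18ac. The maintenance genes were nominally lower, with H3K27ac of 8.43 and 12.9 and H3K18ac of 6.17 and 8.60 at DNMT1, and H3K27ac of 10.98 and 19.1 and H3K18ac of 6.77 and 10.02 at UHRF1.

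The start of another gene lay within the promoter window of 16 members, among them HDAC3 (RELL2, 101 bp), SIRT2 (NFKBIB, 82 bp), KDM5A (CCDC77, 28 bp) and KAT7 (FAM117A, 89 bp), and the peaks there cannot be assigned to 1 of the 2 genes. Of 51 further chromatin genes on a second list, all had both marks in both lines, 0 were increased, 7 were decreased for H3K27ac and 1 for H3K18ac. Over all genes 8.01% were decreased for H3K27ac and 6.12% for H3K18ac. Among genes with a peak in both lines these shares were 8.58% and 1.81%. The decreased genes were MTA2, CHD4, RING1, SIRT3, NCOA1, IDH2 and SMUG1 for H3K27ac, with SMUG1, a uracil DNA glycosylase gene, also for H3K18ac. SMUG1 had H3K27ac of 7.85 in C4-2BER against 19.1 in C4-2B.

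Both called members had a promoter peak more than 4 times as wide in C4-2BER. Promoter peaks were wider in C4-2BER at 41 of 48 members for H3K27ac and at 30 of 48 for H3K18ac, against 77.1% and 59.0% of all genes with a peak in both lines. Over all genes, H3K27ac promoters with a peak at least 2 times as wide in C4-2BER were decreased in 24.3% of cases, and those within 2 times in 6.59%. For H3K18ac these shares were 7.18% and 1.16%. When fold enrichment was multiplied by peak width and summed over the window, EZH1 had a log2 ratio of 1.18 for H3K27ac and HDAC4 had 0.86 for H3K18ac, so the direction of both calls turned over. That measure was chosen after the widths had been seen.

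**Figure D2:**
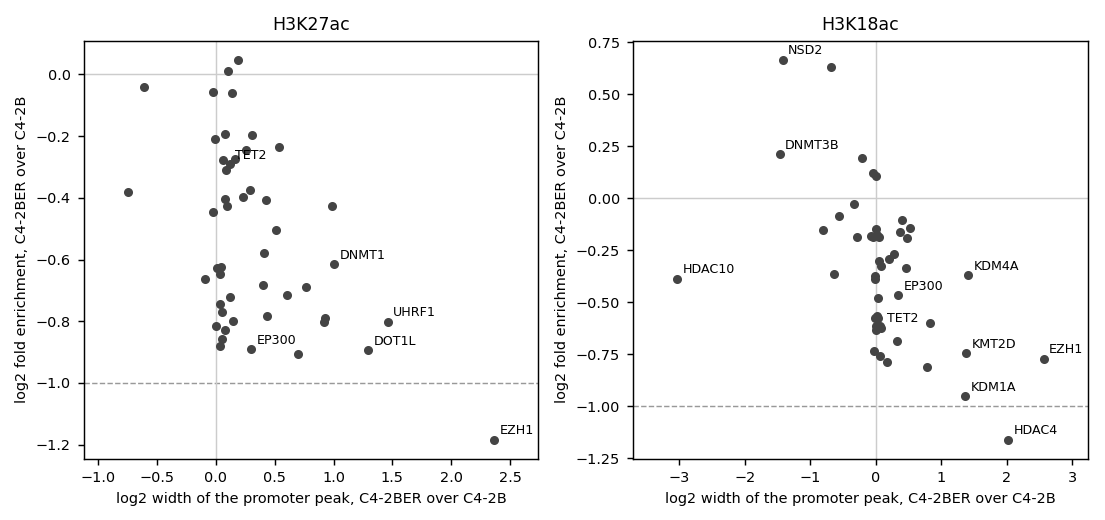
Log2 ratio of promoter fold enrichment (vertical) against log2 ratio of the width of the strongest promoter peak (horizontal), both C4-2BER over C4-2B, for the 48 members with peaks, H3K27ac left and H3K18ac right. The dashed line marks a ratio of 2 lower in C4-2BER, and EZH1 and HDAC4 lie below it at the right, where the peaks are wider in C4-2BER.

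Of the 49 members, 47 had further annotated start sites outside the canonical window, 324 sites in all after nearby ones were joined. Peaks were called increased at 43 of these sites for H3K27ac and at 21 for H3K18ac, and decreased at 30 and 66. Over all genes the same calls were made at 7.99% (increased) and 7.09% (decreased) of sites for H3K27ac and at 6.36% and 13.7% for H3K18ac. Several sites of a gene can share 1 peak, so they are not independent. The 5′-most start of HDAC9, at -408800 bp from the canonical one, is an example of a gain: the sites at 18086949 to 18087024 on chromosome 7 had H3K27ac of 3.73 in C4-2BER and no peak in C4-2B, with H3K18ac of 4.48 and 3.24.

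Inside the genes, the picture was less uniform than at the promoters. Peaks of both lines were merged into regions wherever they overlapped, and a region was counted for a gene if it touched the gene's span and not the promoter window. For H3K27ac the members held 304 such regions, of which 161 had a peak in both lines, 80 in C4-2BER only (26.3%, against 30.8% over all genes) and 63 in C4-2B only (20.7%, against 23.3%). For H3K18ac they held 607 regions, 304 in both lines, 138 in C4-2BER only (22.7%, against 25.8%) and 165 in C4-2B only (27.2%, against 25.6%). The order of the lines turned with the choice of peaks. With peaks of fold enrichment at least 4 there were 34 H3K18ac regions in C4-2BER only against 12 in C4-2B only, and with equal numbers of the strongest peaks per line there were 67 and 69 for H3K27ac. As a whole, the members' shares were near those of all genes. Regions found in 1 line were weaker than shared ones, with a median H3K27ac fold enrichment of 2.46 in C4-2BER only against 2.58 in C4-2B only, against 4.67 in C4-2BER at shared regions. Counts for single genes therefore rest mostly on peaks of low enrichment.

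The balance differed between members. For H3K27ac, 19 members had more regions in C4-2BER only, 11 had more in C4-2B only and 19 had equal numbers, 8 of the 49 having no intragenic region at all. The same split was not counted over all genes. Together all genes held 1.32 H3K27ac regions in C4-2BER only for each 1 in C4-2B only, and the members 1.27. EP300 had 7 regions in C4-2BER only against 0 in C4-2B only, beside 5 shared ones. KDM5A, an H3K4 demethylase gene, had 6 and 0, NSD1 had 4 and 0, and KMT2A had 5 and 1. On the other side stood HDAC4 with 1 and 11, KAT6B, an H3 acetyltransferase gene, with 3 and 10, KAT6A with 0 and 4, and UHRF1 with 0 and 3. Among the 1290 genes with at least 10 H3K27ac regions, 6.82% leaned further towards C4-2BER than EP300 and 10.0% leaned further towards C4-2B than KAT6B. At the 5 shared H3K27ac regions of KAT6B the order was the same, with 0 higher in C4-2BER and a median log2 ratio of -0.66, against -0.09 over all genes with at least 5 shared regions.

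**Figure D3:**
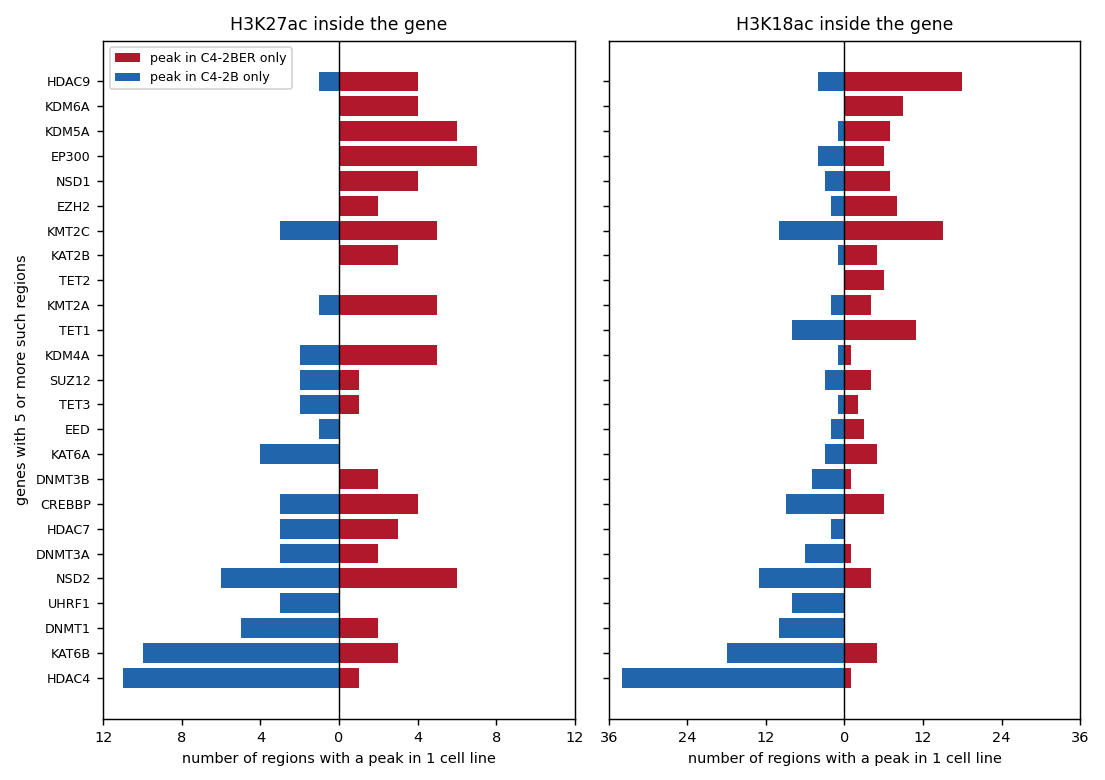
Number of intragenic regions with a peak in C4-2BER only (red, to the right) and in C4-2B only (blue, to the left) for the members with 5 or more such regions over both marks, H3K27ac left and H3K18ac right. Genes are ordered by the difference, from HDAC9 and KDM6A at the top to HDAC4 at the bottom, where 11 H3K27ac and 34 H3K18ac regions were found in C4-2B only.

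The gained H3K27ac regions of EP300 ran from 14.3 to 65.8 kb downstream of its start site. Of these 7, 2 coincided with H3K18ac regions of C4-2BER only and 4 had no H3K18ac peak in either line. The broadest covered 6201 bp over exons 18 to 20 (chr22:41155328-41161528), with H3K27ac of 4.30 in C4-2BER, and H3K18ac peaks in C4-2BER only lay within it. The strongest was 546 bp in intron 2, with H3K27ac of 4.94 and H3K18ac of 3.70 in C4-2BER against no peak of either mark in C4-2B. H3K27ac peaks covered 20.6% of the EP300 span in C4-2BER against 6.77% in C4-2B. For H3K18ac EP300 had 6 regions in C4-2BER only against 4 in C4-2B only. At KDM5A, 4 of the 6 gained H3K27ac regions coincided with H3K18ac regions of C4-2BER only. The strongest, over exons 23 and 24 (chr12:305944-308373), had H3K27ac of 4.69 and H3K18ac of 3.38 in C4-2BER.

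The centres of a pair of strong regions found in C4-2BER only, in introns of KAT6B and KDM6A, are given to show what lies under them. Each is 200 bases on the plus strand (GRCh38), and the capitals mark the central 30 bases, whose exact copies in the genome were counted on both strands.
KAT6B intron, C4-2BER only, chr10:74923540-74923739, plus strand: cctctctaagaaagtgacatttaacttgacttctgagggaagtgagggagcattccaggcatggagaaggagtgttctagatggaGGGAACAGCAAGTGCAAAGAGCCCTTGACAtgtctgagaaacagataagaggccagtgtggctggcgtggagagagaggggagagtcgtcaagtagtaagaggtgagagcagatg
KDM6A intron, C4-2BER only, chrX:44935813-44936012, plus strand: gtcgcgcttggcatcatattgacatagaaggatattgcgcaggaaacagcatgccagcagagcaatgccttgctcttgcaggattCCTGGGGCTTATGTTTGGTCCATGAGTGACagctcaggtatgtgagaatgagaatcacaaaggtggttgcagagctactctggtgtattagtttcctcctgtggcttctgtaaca
The central 30 bases occurred 1 time in the genome in each of them. Strong regions of C4-2B only in introns of KAT6B, KMT2C and HDAC9 were narrow, at 306, 315 and 377 bp, and had H3K27ac fold enrichments of 3.90, 3.84 and 3.74 in C4-2B. H3K18ac was present in both lines at each of them. Over all members, the centre occurred at least 10 times in 11 of 63 H3K27ac regions of C4-2B only (17.5%), 8 of 80 of C4-2BER only (10.0%) and 12 of 161 shared ones (7.45%). For H3K18ac the order was another, with 17.6% of regions of C4-2B only, 26.8% of C4-2BER only and 20.1% of shared ones. The 11 H3K27ac regions of C4-2B only with such a centre were all among the 32 under 500 bp. The part of repeated sequence in these calls was not tested. The strongest region of C4-2B only had a centre that occurred 1 time. It lay over exon 11 of KDM4A, an H3K9 and H3K36 demethylase gene (chr1:43669629-43672432), with H3K27ac of 4.42 and H3K18ac of 3.81 in C4-2B and no peak of either mark in C4-2BER.

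At KDM6A the promoter and the gene body went opposite ways in fold enrichment. NSD1 and HDAC4 also had a nominally lower H3K27ac promoter in C4-2BER (log2 ratios of -0.91 and -0.80) with a higher median at shared intragenic regions (0.36 over 8 regions and 0.32 over 17). The span of KDM6A, of 240 kb, held 34 H3K27ac regions shared by both lines, 4 in C4-2BER only against 0 in C4-2B only. The same counts for H3K18ac were 47, 9 and 0. Of the 34 shared regions, 31 had a higher fold enrichment in C4-2BER and 8 were higher by at least 2 times. The median at these regions was 9.12 in C4-2BER against 5.32 in C4-2B, a median log2 ratio of 0.61, and of the 1360 genes with at least 5 shared regions 20 had a higher median. For H3K18ac 43 of the 47 shared regions were higher in C4-2BER, with medians of 5.34 and 4.01. The difference was larger in the 3′ part of the gene. Within 100 kb of the start site the median H3K27ac log2 ratio was 0.27 over 14 shared regions, and beyond 100 kb it was 0.88 over 20 regions, all 20 of them higher in C4-2BER. All 8 regions higher by at least 2 times lay 139 kb or more from the start site. The promoter values of 20.5 and 35.4 had the reverse order, over peaks of 8552 bp in C4-2BER against 4493 bp in C4-2B. The H3K18ac promoter peaks were 8332 bp and 4671 bp wide. With fold enrichment times width, the KDM6A promoter had log2 ratios of 0.14 for H3K27ac and 0.24 for H3K18ac. These had the same direction as the gene body.

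**Figure D4:**
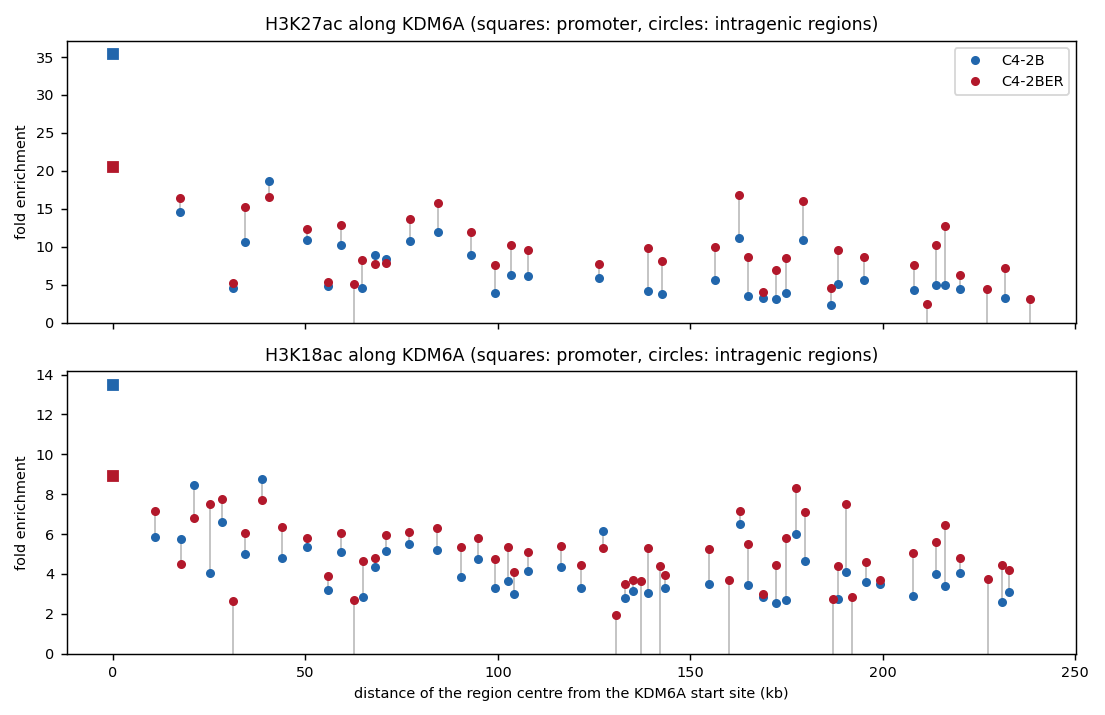
Fold enrichment of H3K27ac (top) and H3K18ac (bottom) in C4-2B (blue) and C4-2BER (red) against distance from the KDM6A start site in kb. Squares are the promoter and circles the intragenic regions, with a grey line joining the 2 values of a region, or running to 0 where C4-2B had no peak. The blue square is above the red one at the promoter, and the red circles are above the blue ones at 31 of 34 shared H3K27ac regions.

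The rise was not confined to the KDM6A span. In the 1000 kb upstream of the gene the median H3K27ac log2 ratio over shared regions was 0.37, with 24 regions in C4-2BER only against 3 in C4-2B only, and in the 1000 kb downstream it was 0.47, with 28 and 4. Over chromosome X as a whole it was -0.10. Among the neighbouring genes, the promoter of DIPK2B had H3K27ac of 23.5 in C4-2BER against 9.46 in C4-2B, that of NDP had 10.3 and 5.22, and that of DUSP21 had 7.01 and no peak. FUNDC1 was nearly level at 12.7 and 11.5, and EFHC2 and MAOB had no H3K27ac peak in either line. For H3K18ac the flanks showed no such difference in level, with medians of 0.05 upstream and near 0 downstream, although 60 and 46 regions were found in C4-2BER only against 15 and 10 in C4-2B only.

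HDAC4 leaned towards C4-2B in its count of H3K18ac regions. It held 34 H3K18ac regions in both lines, 1 in C4-2BER only against 34 in C4-2B only, the last at fold enrichments from 2.21 to 2.95 and spread from 14.3 to 322 kb into the gene. H3K18ac peaks covered 31.8% of its span in C4-2BER against 58.5% in C4-2B. The level at its shared H3K18ac regions was near that of other genes. Of these 34, 10 were higher in C4-2BER. Their median log2 ratio was -0.09, against -0.10 over all genes with at least 5 shared regions. At 33 of the 34 lost regions there was no H3K27ac peak in either line. H3K27ac cover was 12.4% and 12.6%, and at its 17 shared H3K27ac regions 11 were higher in C4-2BER, with a median log2 ratio of 0.32. Among the 3928 genes with at least 10 H3K18ac regions, 6.29% leaned further towards C4-2B than HDAC4. DNMT1 and UHRF1 leaned further still, with 10 and 8 H3K18ac regions in C4-2B only and 0 in C4-2BER only, where 1.76% and 2.62% of genes leaned further. In DNMT1 all 5 H3K27ac regions of C4-2B only coincided with H3K18ac regions of C4-2B only, in the 3′ part of the gene from 44.5 to 61.6 kb, at H3K27ac fold enrichments from 2.36 to 3.03.

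Among the TET genes, TET2 had 0 intragenic H3K27ac regions in either line, but 6 H3K18ac regions in C4-2BER only against 0 in C4-2B only. All 6 lay in introns, 59.0 to 101 kb from its start site, with fold enrichments from 2.26 to 2.89 and no H3K27ac. H3K18ac cover of TET2 was 6.16% in C4-2BER against 2.29% in C4-2B. TET1 had 2 shared H3K27ac regions, the stronger at 38.7 kb in intron 2 with fold enrichments of 12.1 in C4-2BER against 8.86 in C4-2B, and 11 H3K18ac regions in C4-2BER only against 8 in C4-2B only. TET3 had 4 shared H3K27ac regions, 1 in C4-2BER only against 2 in C4-2B only. Other members with more H3K18ac regions in C4-2BER were HDAC9 with 18 and 4, EZH2 with 8 and 2 and KDM5A with 7 and 1. For HDAC9 the regions ran from 371 kb upstream to 473 kb downstream of the canonical start site, which itself had no peak.

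The share of a gene under peaks gave a measure that does not depend on how regions are split. Unlike the region counts, it takes in the promoter peak where that peak lies over the gene. For H3K27ac this share was higher in C4-2BER in 33 members and lower in 13. The largest rises were at BRD2, from 61.5% in C4-2B to 90.7% in C4-2BER, HDAC1, from 43.4% to 60.7%, and KDM6A, from 46.5% to 62.9%. The largest falls were at KMT2B, from 89.3% to 71.9%, SIRT7, from 87.4% to 79.9%, and KAT6A, from 7.50% to 3.11%. The H3K27ac promoter peak of BRD2 was 11637 bp wide in C4-2BER against 7656 bp in C4-2B. That of KMT2B was 7606 bp against 11639 bp. Outside the promoter window BRD2 and KMT2B each had 1 H3K27ac region, shared by both lines. Over all genes H3K27ac cover was higher in C4-2BER in 10774 and lower in 5151. For H3K18ac it was higher in 27 members and lower in 22, and over all genes in 9061 and 8870. It fell most at DOT1L, the H3K79 methyltransferase gene, from 93.9% in C4-2B to 46.0% in C4-2BER, at SIRT2, from 51.4% to 16.8%, and at SIRT7, from 81.6% to 47.3%.

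The members with lower H3K18ac cover were mostly GC-rich. Of 21 members with a GC content of at least 50% over their span, 18 had lower H3K18ac cover in C4-2BER and the median change was -12.8 percentage points. Of the 28 with less GC, 4 were lower and 24 higher, with a median change of 3.11 points. Over all genes, 4634 of the 6619 with at least 50% GC were lower, with a median change of -10.4 points. Of the 13414 with less GC, 4236 were lower and 7921 higher, with a median change of 0.51 points. Across the 49 genes, which share the 2 lists and differ in length, Spearman's rho between GC content and the change was -0.68 for H3K18ac and -0.02 for H3K27ac. Over all 20033 genes these values were -0.44 and -0.03. BRD2 was an exception, with a GC content of 51.5% and a rise of 29.9 points. The regions themselves differed likewise. The median GC content of member H3K18ac regions was 48.2% in C4-2BER only against 54.5% in C4-2B only, and of H3K27ac regions 47.6% and 54.5%. The part of GC content in these differences was not tested.

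**Figure D5:**
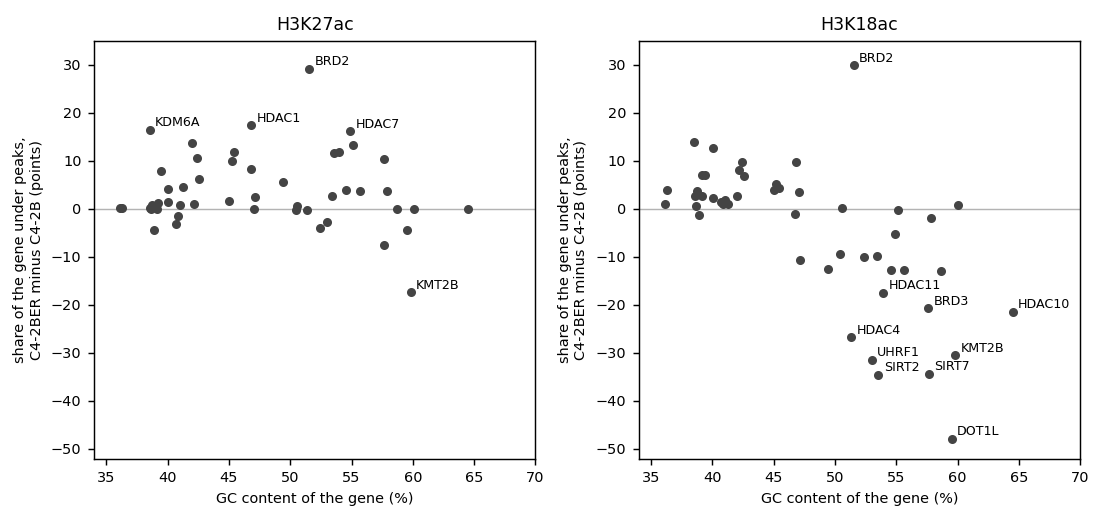
Change in the share of each gene covered by peaks (C4-2BER minus C4-2B, percentage points) against the GC content of the gene in percent, for the 49 members, H3K27ac left and H3K18ac right. In the H3K18ac panel 18 of the 21 genes at or above 50% GC lie below 0, and DOT1L is the lowest at -47.9.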

How the data were processed

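H3K27ac and H3K18ac were immunoprecipitated from C4-2B and C4-2BER, 2 libraries per mark and line with 1 input library per line. Per the paper and the submitters' processing notes, the authors trimmed reads (Trimmomatic 0.33), aligned them to GRCh38 (Bowtie2, given as version 2.2.3 in the notes), filtered low mapping quality, blacklisted regions and duplicates (Picard), merged replicates and called broad peaks with MACS2. The deposited values used were the fold enrichment (a ratio) of each peak and its −log10 q-value. The −log10 p-value deposited beside them was not used.

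GENCODE release 44 gave start sites and spans. Values were computed in Python 3.11.15 with pandas 2.3.3 and statsmodels 0.14.6. The calling code was tested on simulated peaks. All 49 members are covered. Those given in full have a changed promoter, belong to the p300/CBP, TET, DNMT, UHRF1 or EZH2 genes, or rank in the 3 highest or lowest promoters, the 3 largest changes of H3K27ac cover or the 5 strongest regions of 1 line. KDM5A, KDM1A, HDAC9, KMT2A, NSD1 and other genes named for their counts were added on seeing their values. A marker gene and the sequences of some regions are not reported here. The members and lists were chosen with earlier results of these data known. Alternatives covered windows, start sites, thresholds, rescaling and GC. Those on peak width were added after seeing the data.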

Additional observations from a re-analysis of the deposited data

How the results depend on the processing

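No paired analysis was possible because the replicates of each mark and line were merged before peak calling, and for the same reason no replicate could be left out. Of 110 alternative values of the group results 79 stayed close to the reported ones, and of 565 values of named members 549 moved by less than 1.5 times. For H3K27ac, taking every annotated start site gave 1 increased and 2 decreased members. Rescaling C4-2BER, centring by GC content, requiring a peak in 1 line only, or keeping members with peak widths within 2 times gave 0 decreased members for each mark. A ratio of 1.5 gave 24 decreased members for H3K27ac, and 2 increased and 14 decreased members for H3K18ac. The share of all genes called was not counted under these alternatives. Over all genes with a peak in both lines the median log2 ratio was -0.51 for H3K27ac, with a lower quartile of -0.75. For H3K18ac these were -0.34 and -0.55. Fold enrichment times width gave 1 increased and 1 decreased member (HDAC10) for H3K27ac and 2 increased and 2 decreased for H3K18ac, and turned EZH1 to 1.18 and HDAC4 to 0.86 (log2), since the wider peaks enter it. The H3K27ac median log2 ratio became -0.12 on rescaling, -0.053 on GC centring, -0.19 with width and -0.48 at similar widths. The H3K18ac median became -0.11 on rescaling, 0.0055 on GC centring, which reversed its sign, and -0.25 with width. With peaks of fold enrichment at least 4, H3K27ac regions of C4-2BER only and of C4-2B only fell to 26 and 9, and H3K18ac regions to 34 and 12. With −log10 q-values of at least 5 they fell to 41 and 12, and to 76 and 12, so that the excess of H3K18ac regions in C4-2B rests on weak peaks. The cause of the other shifts was not tested. Unknown depth limits all statements on absent peaks.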
